A study of Homo sapiens with 6 samples.

Results

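The genes described here were the nuclear topoisomerases TOP1, TOP2A, TOP2B, TOP3A and TOP3B, the enzymes TDP1 and TDP2 that remove trapped topoisomerases from DNA, and SLFN11, a factor that acts on replication forks under DNA damage. They were the rows of the count table whose symbol equals 1 of these 8 names, and all 8 were present among the 59653 genes of the table. RNA was sequenced from SK-OV3, a human ovarian cancer line that does not express p53, in 3 siControl and 3 siPVT1 libraries. The siControl cells received a non-targeting siRNA pool and the siPVT1 cells a single pool of siRNAs against the lncRNA PVT1, each at 50 nM for 48 h in full serum medium. The line was labelled as wildtype in both groups, and the labels name no drug, so that no cell sequenced here is described as exposed to doxorubicin. As there is 1 pool against PVT1, effects of lower PVT1 and other effects of that pool cannot be told apart. The labels do not say whether the 3 libraries of a group came from separate cultures, and the p-values then measure the spread between these libraries.

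Topoisomerases relieve the twist that builds up in DNA when it is copied or read, by cutting a strand, passing DNA through the break and closing it again. During the cut the enzyme is bound to the DNA end through a tyrosine. Doxorubicin traps TOP2A and TOP2B in this state, and camptothecin and its relatives trap TOP1, which leaves a break blocked by protein. TDP1 cleaves the bond that TOP1 leaves and TDP2 the bond that TOP2 leaves. SLFN11 is recruited to stalled replication forks and blocks them for good, and tumour cells with much SLFN11 are known to be sensitive to drugs that poison topoisomerases.

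In siPVT1 cells 5 of the 8 genes were higher than in siControl cells and 3 were lower, at a Benjamini-Hochberg adjusted p under 0.05 in edgeR's quasi-likelihood test. The 5 higher genes were TOP1, TOP2A, TOP2B, TDP1 and SLFN11, and the 3 lower genes were TOP3A, TOP3B and TDP2. All 8 thus passed the test, against 57.9% of all 19008 genes tested in this comparison, of which 29.5% were higher and 28.4% lower. With a background that high, the count by itself does not set these genes apart. No member also reached the study's second threshold of a log2 fold change of 1 in size, which together with the first was passed by 21.5% of all genes tested. In each of the 8 genes every siPVT1 library lay on one side of every siControl library, as was so for 65.6% of all genes tested. The median size of the log2 fold change was 0.66 over the 8 genes and 0.52 over all genes tested. In bulk RNA, a change in the share of cells that express a gene and a change in its RNA per cell cannot be told apart.

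PVT1, the target, was at 3588 ± 437 normalized counts in siControl libraries and at 2174 ± 154 in siPVT1 libraries (SD, n = 3 each), 60.6% of the siControl level. Library totals were between 28383171 and 35059576 counts. Normalized counts here are counts scaled by TMM, edgeR's normalization, to the mean library size. One library, siPVT1 replicate 3, lay apart from the other siPVT1 libraries in cell cycle genes, as described further on. All 8 markers by which SK-OV3 cells can be known were detected, with EPCAM low at 96.7 ± 31.3 normalized counts in siControl (SD, n = 3). MUC16 was uneven between libraries, at 199, 635 and 17.9 normalized counts in siPVT1 replicates 1, 2 and 3. Of these 8, 4 were higher in siPVT1 and 2 lower, beside 29.5% and 28.4% of all genes tested. Among them were KRT19 (256 ± 18.5 to 1261 ± 449 normalized counts), PAX8 (2627 ± 23.6 to 5254 ± 609), KRT7 (7112 ± 497 to 5010 ± 184) and ERBB2 (1249 ± 68.9 to 929 ± 32.9, SD, n = 3 each). Among 8 markers of other cell types, the immune genes CD3E and PTPRC had at most 2 counts in any library. The endothelial gene CDH5 was at 1998 ± 7.09 normalized counts in siControl and 9314 ± 1108 (SD, n = 3 each) in siPVT1. Of the 5 marker genes of other cell types that were tested, 4 were higher in siPVT1 and 1 lower, beside 29.5% and 28.4% of all genes tested. The higher ones were CDH5, the endothelial genes PECAM1 (log2 fold change 2.99) and VWF (1.66), and the fibroblast gene COL1A1 (2.15). The lower one was the immune gene CD14 (−1.42), from a low siControl mean of 7.66 normalized counts. Summed over the list of other cell types, the level ranged from 69.6 to 70.4 CPM in siControl and from 293 to 366 CPM in siPVT1. CDH5 was by far the most counted gene of that list and made up most of this sum. The part of this shift in the results below was not tested.

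The start regions of 3 of the genes are shown because TOP2A and TOP2B both rose while TOP3A fell. TOP2A lies on the minus strand of chromosome 17 from 40388525 to 40417896 in GRCh38, TOP2B on the minus strand of chromosome 3 from 25597978 to 25664909, and TOP3A on the minus strand of chromosome 17 from 18271428 to 18315007 (GENCODE v44). Each sequence is the 250 bases before a RefSeq start, 5′ to 3′ on the gene's strand, in GRCh38.p14, at chr17:40417897-40418146 for TOP2A, chr3:25664908-25665157 for TOP2B and chr17:18314995-18315244 for TOP3A. Capitals mark matches on either strand to CCAAT, the letters bound by NF-Y, and to TTTGAA, a form of the cell cycle element CHR.
TOP2A: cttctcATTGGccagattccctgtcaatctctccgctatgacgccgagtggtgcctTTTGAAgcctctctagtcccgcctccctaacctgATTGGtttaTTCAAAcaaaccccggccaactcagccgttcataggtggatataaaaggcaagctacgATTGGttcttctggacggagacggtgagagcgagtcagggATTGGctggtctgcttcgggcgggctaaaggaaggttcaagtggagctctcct
TOP2B: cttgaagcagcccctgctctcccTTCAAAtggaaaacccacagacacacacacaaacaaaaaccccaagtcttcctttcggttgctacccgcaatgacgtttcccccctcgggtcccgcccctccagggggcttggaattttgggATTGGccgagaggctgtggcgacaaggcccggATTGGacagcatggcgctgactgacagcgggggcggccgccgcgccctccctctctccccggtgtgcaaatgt
TOP3A: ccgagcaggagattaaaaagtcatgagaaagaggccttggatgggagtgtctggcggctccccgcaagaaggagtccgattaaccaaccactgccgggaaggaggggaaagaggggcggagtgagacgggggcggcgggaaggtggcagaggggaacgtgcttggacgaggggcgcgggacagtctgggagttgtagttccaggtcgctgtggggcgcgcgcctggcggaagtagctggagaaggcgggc
The TOP2A region held 4 CCAAT matches, which begin 244, 160, 93 and 53 bases before the start, and 2 TTTGAA matches. The TOP2B region held 2 CCAAT matches, 105 and 73 bases before the start, and 1 TTTGAA match, and a further RefSeq start of TOP2B had none of either. The TOP3A region held neither. Of the 35116 promoters of the same table and length, 32% held at least 1 CCAAT match, 2.93% held at least 3 and 13.3% held a TTTGAA match. Among the 8 genes, CCAAT was also found in the SLFN11 region and TTTGAA in the TDP1 region. The regions of TOP1, which rose, and of TDP2 and TOP3B, which fell, held neither. No region held the core of the interferon response element (GAAA, any 2 bases, GAAA, on either strand), which 3.02% of promoters hold. These are matches of letters, and no binding was measured.

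Compared per length, TOP2A was the most abundant of the 8 transcripts in both groups and TOP3B the least. Levels between genes are given here as CPM per kilobase of the MANE Select transcript of GENCODE v44, and the share of other isoforms is unknown. In siControl cells TOP2A stood at 74.0 ± 1.76, TOP1 at 66.0 ± 2.19 and TOP2B at 34.6 ± 1.28 CPM per kb (SD, n = 3 each). These 3 enzymes, which relax DNA during replication and transcription, were followed by TDP2 at 28.7 ± 0.74 CPM per kb. TDP1 at 9.62 ± 0.49, TOP3A at 9.33 ± 0.23, SLFN11 at 8.56 ± 0.41 and TOP3B at 5.95 ± 0.14 CPM per kb made up the lower part of the order. Neighbours in this order did not overlap between libraries, except TDP1 and TOP3A. In siPVT1 cells TOP2A reached 126.8 ± 16.9 CPM per kb, and SLFN11 moved ahead of TOP3A, with 13.9 ± 2.46 against 5.75 ± 1.26 CPM per kb (SD, n = 3 each). In that group the ranges of TDP1 and SLFN11 overlapped, as did those of TOP3A and TOP3B.

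**Figure D1:**
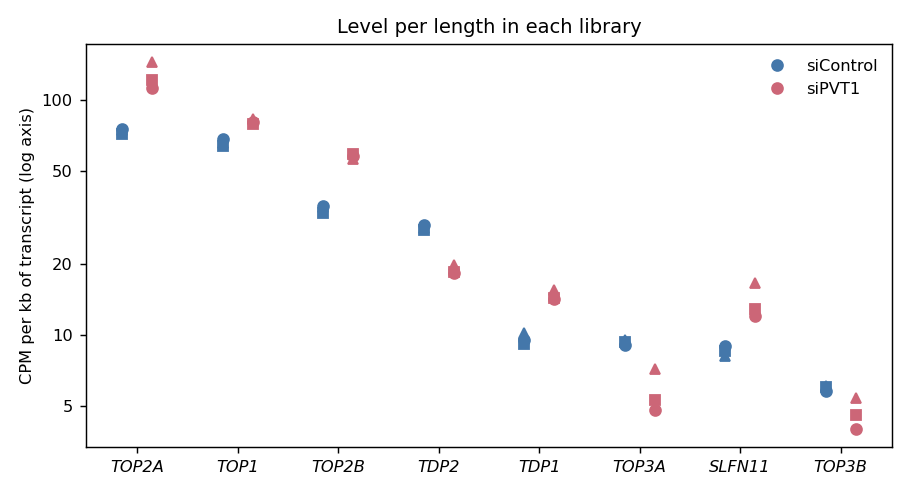
Level of each gene in each library as CPM per kilobase of transcript on a log axis, with siControl in blue and siPVT1 in red, and circles, squares and triangles for replicates 1, 2 and 3. TOP2A is the highest in both groups, at 74.0 and 126.8 CPM per kb on average, and TOP3B the lowest.

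TOP1 makes the single-strand cuts that relax DNA ahead of polymerases and is the target of camptothecin. Its siControl libraries held 7923, 7415 and 7679 normalized counts, and its siPVT1 libraries held 9366, 9246 and 9656, each in the order of the replicate numbers, as in all such lists of values here. Every siPVT1 library was above every siControl library, and the replicates of a group lay close together. The log2 fold change was 0.30 (standard error, SE, of 0.055, edgeR quasi-likelihood adjusted p = 0.00194), the smallest in size of the 8. Scaled by the total count alone, the median over all genes moved from 0.001 to −0.148 on the log2 scale. The log2 fold change of TOP1 was then 0.15 (adjusted p = 0.0243), so that its size depends on the scaling. Those of the other members moved down alike, for example TOP2A from 0.78 to 0.63 and TOP3A from −0.70 to −0.85. TOP1 (ENSG00000198900) lies on the plus strand of chromosome 20 from 41028822 to 41124487 and overlaps the antisense gene PLCG1-AS1, which had at most 32 counts in a library.

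TOP2A, the TOP2 enzyme of dividing cells, which untangles sister chromatids, had 13365, 12766 and 13218 normalized counts in siControl and 19934, 21747 and 25779 in siPVT1. All siPVT1 libraries were higher, and siPVT1 replicate 3 was the highest of them. The fit gave a 1.71-fold rise, a log2 fold change of 0.78 (SE 0.093, edgeR quasi-likelihood adjusted p = 0.000186). Without siPVT1 replicate 3 the log2 fold change was 0.65, the lowest of 6 fits with 1 library left out.

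TOP2B is the TOP2 enzyme of dividing and resting cells alike, acts at promoters and chromatin loop anchors, and is the form tied to the toxicity of doxorubicin to the heart. Its normalized counts were 6447, 6004 and 6343 in siControl and 10441, 10748 and 10206 in siPVT1. Here the siPVT1 libraries were close to each other and replicate 3 was the lowest of them. The rise was 1.67-fold, a log2 fold change of 0.74 (SE 0.056, edgeR quasi-likelihood adjusted p = 1.78e-05). TOP2A and TOP2B together rose from 19380 ± 544 to 32950 ± 2833 normalized counts (SD, n = 3 each), 1.70 times the siControl mean.

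TOP3A, which cuts single strands and works with BLM, RMI1 and RMI2 to separate recombined DNA molecules, also acts on mitochondrial DNA. It fell from 1866, 1926 and 1958 normalized counts in siControl to 984, 1084 and 1475 in siPVT1 replicates 1, 2 and 3. The groups did not overlap, and siPVT1 replicate 3 was the closest to siControl. The log2 fold change was −0.70 (SE 0.137, edgeR quasi-likelihood adjusted p = 0.00275), and −0.91 without siPVT1 replicate 3. TOP3B, which works with TDRD3 and acts on RNA as well as DNA, had 511, 530 and 534 normalized counts in siControl and 352, 401 and 476 in siPVT1. Its order among the siPVT1 libraries was that of TOP3A. The log2 fold change of −0.36 (SE 0.114, adjusted p = 0.0269) was called with the least margin of the 8 genes. Its adjusted p rose to 0.0586, 0.0751 and 0.0764 without siControl replicates 1, 2 and 3 and to 0.0759 without siPVT1 replicate 2, so that leaving out any of these 4 libraries ended the call. TOP3B overlaps the antisense gene PPM1F-AS1, which had from 9 to 45 counts in a library, and its pseudogene TOP3BP1 had at most 9. On GRCh38 TOP3B lies on the minus strand of chromosome 22 from 21957025 to 21982813.

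TDP1, which clears TOP1 from the 3′ ends of DNA breaks, had 1102, 1065 and 1177 normalized counts in siControl and 1649, 1670 and 1799 in siPVT1. All siPVT1 libraries were higher, with a log2 fold change of 0.61 (SE 0.070, edgeR quasi-likelihood adjusted p = 0.000136). TDP2, which clears TOP2 from 5′ ends, went the other way, from 1772, 1683 and 1728 normalized counts in siControl to 1103, 1120 and 1202 in siPVT1. It fell by 0.60 on the log2 scale (SE 0.064, edgeR quasi-likelihood adjusted p = 0.000101). The transcript of the enzyme for TOP1 adducts was thus higher in siPVT1 and that of the enzyme for TOP2 adducts lower. Both TOP1 and TOP2 transcripts were higher, and protein was not measured. TDP1 lies on the plus strand of chromosome 14 from 89954939 to 90044764 and TDP2 on the minus strand of chromosome 6 from 24649979 to 24666930.

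SLFN11 had 1433, 1372 and 1303 normalized counts in siControl and 1924, 2059 and 2663 in siPVT1 replicates 1, 2 and 3. Every siPVT1 library was above the highest siControl library, and siPVT1 replicate 3 stood above the other 2. The log2 fold change was 0.70 (SE 0.120, edgeR quasi-likelihood adjusted p = 0.00133), a 1.62-fold rise. It was 0.52 without siPVT1 replicate 3. The gene lies on the minus strand of chromosome 17 from 35350305 to 35373701.

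**Figure D2:**
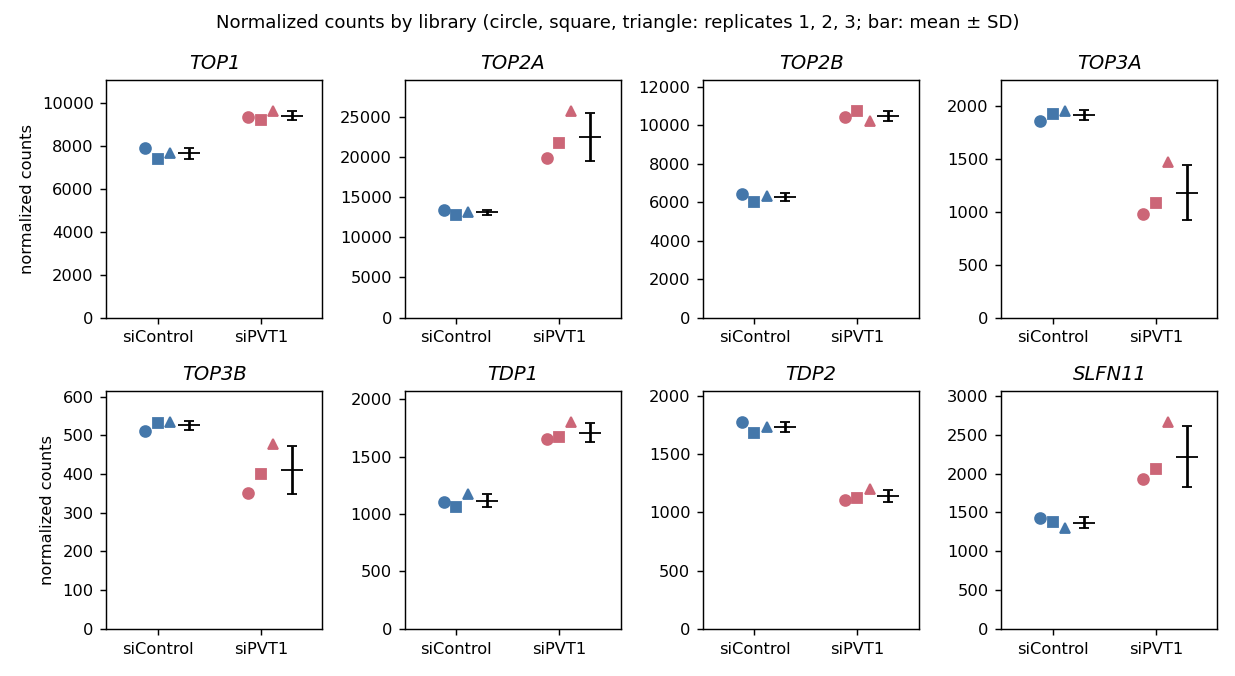
Normalized counts of each gene in the 3 siControl libraries (blue) and the 3 siPVT1 libraries (red), with black bars for the mean and SD and each vertical axis starting at 0. The groups are apart in all 8 panels, and the triangle of siPVT1 replicate 3 is the highest of the siPVT1 libraries in every panel but TOP2B.

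**Figure D3:**
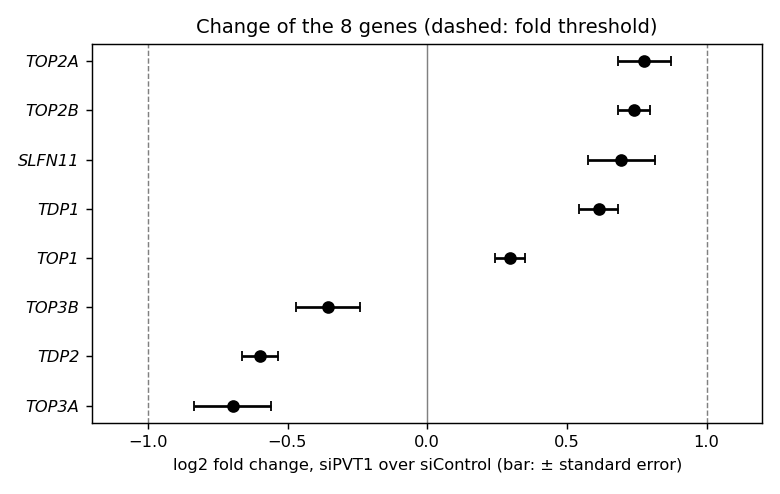
Log2 fold change of each gene, siPVT1 over siControl, with its standard error, and dashed lines at the fold threshold of the study. The values run from −0.70 for TOP3A to 0.78 for TOP2A, and no point reaches a dashed line.

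Ratios of paralogous or paired genes were taken within a library, so that they do not depend on the scaling between libraries. The 3 ratios were compared by two-sided exact permutation tests of 3 libraries against 3, which cannot go below p = 0.1. The ratio of TDP1 to TDP2 counts was 0.622, 0.633 and 0.681 in siControl and 1.496, 1.491 and 1.497 in siPVT1. TDP1 was the less counted of the pair in each siControl library and the more counted in each siPVT1 library, a difference of 1.21 in the log2 ratio (exact permutation p = 0.1, adjusted over the 3 ratios p = 0.15). Per length TDP1 stayed below TDP2 in both groups, with mean ratios of 0.335 and 0.777. The ratio of TOP3A to TOP3B fell from 3.65, 3.63 and 3.67 in siControl libraries to 2.798, 2.703 and 3.097 in siPVT1 libraries, without overlap and with a difference of −0.35 in the log2 ratio (exact permutation p = 0.1, adjusted p = 0.15). TOP3A was thus lower relative to TOP3B in all 3 siPVT1 libraries.

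The ratio of TOP2A to TOP2B counts was 2.07, 2.13 and 2.08 in siControl and 1.91, 2.02 and 2.53 in siPVT1 replicates 1, 2 and 3. Here the groups overlapped, and the mean log2 ratio differed by 0.029 (exact permutation p = 1). Without siPVT1 replicate 3 the difference was −0.092 (exact permutation p = 0.1), so that its direction rests on that library. A difference between the changes of TOP2A and TOP2B was not detectable here, with an SD of 0.213 in the log2 ratio among the siPVT1 libraries.

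**Figure D4:**
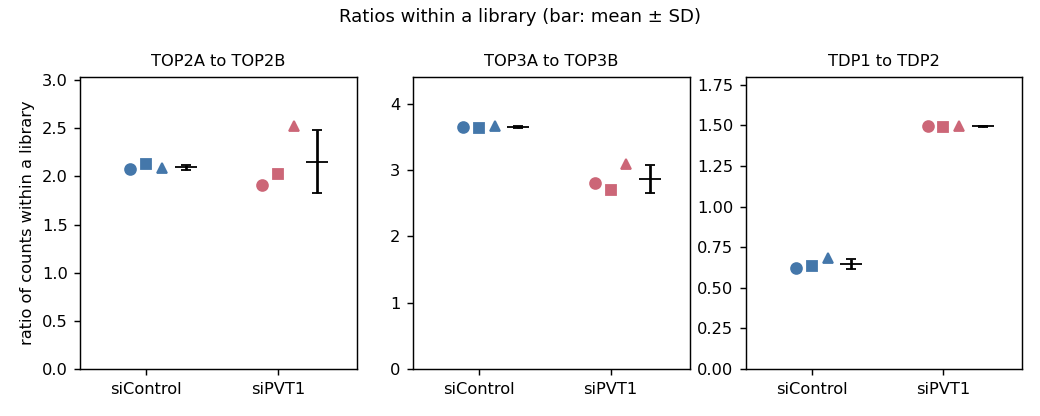
Ratio of counts within each library for TOP2A to TOP2B, TOP3A to TOP3B and TDP1 to TDP2, with siControl in blue, siPVT1 in red and black bars for the mean and SD. The TDP1 to TDP2 ratio is between 0.622 and 0.681 in siControl and between 1.491 and 1.497 in siPVT1, while the TOP2A to TOP2B ratio overlaps between groups.

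TOP2A RNA is made mainly in late S, G2 and M phase, so its level was set beside genes of these phases. Of 20 genes of G2 and M phase, 18 rose in siPVT1, 1 fell and 1 did not pass the test, with a median log2 fold change of 0.66. Over all genes tested, 57.9% were called, 29.5% higher and 28.4% lower. The largest changes were in HMGB2, a chromatin protein (1.47), CENPF, a kinetochore protein (1.05), and KIF20A, a mitotic kinesin (1.03). The summed level of these 20 genes was 2010, 1890 and 2008 CPM in siControl and 2707, 3042 and 3810 CPM in siPVT1 replicates 1, 2 and 3. That order of the siPVT1 libraries was shared by TOP2A and by every other member but TOP1 and TOP2B. Of 18 genes of S phase 1 rose, 8 fell and 9 did not pass the test, so that the share called was below that over all genes tested. MCM3, GINS2 and MCM5, all parts of the replicative helicase or its loading, had log2 fold changes of −1.31, −1.02 and −0.88. The summed level of the 18 S phase genes was 1534, 1422 and 1518 CPM in siControl and 941, 1102 and 1578 CPM in siPVT1. Here siPVT1 replicate 3 lay above all siControl libraries while the other 2 lay below. Without siPVT1 replicate 3, 14 of the 18 S phase genes fell and 1 rose, and the counts for G2 and M phase stayed at 18 and 1. Scaled by the total count, 14 of the G2 and M phase genes rose and 1 fell, and 0 of the S phase genes rose and 10 fell.

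Relative to the 20 genes of G2 and M phase, TOP2A was slightly higher in each siPVT1 library than in each siControl library. The groups nearly touched, with 21.73% in siPVT1 replicate 3 and 21.7% in siControl replicate 2. Its counts were 21.4%, 21.7% and 21.1% of their sum in siControl and 23.7%, 23.0% and 21.7% in siPVT1, a difference of 0.090 in the log2 ratio (two-sided exact permutation p = 0.1, the smallest possible). This measure was added after the data were seen, and the exact permutation p was 0.2 with any 1 siControl library left out. The log2 fold change of TOP2A itself was 0.78, and the part of cell cycle phase in that change was not tested.

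**Figure D5:**
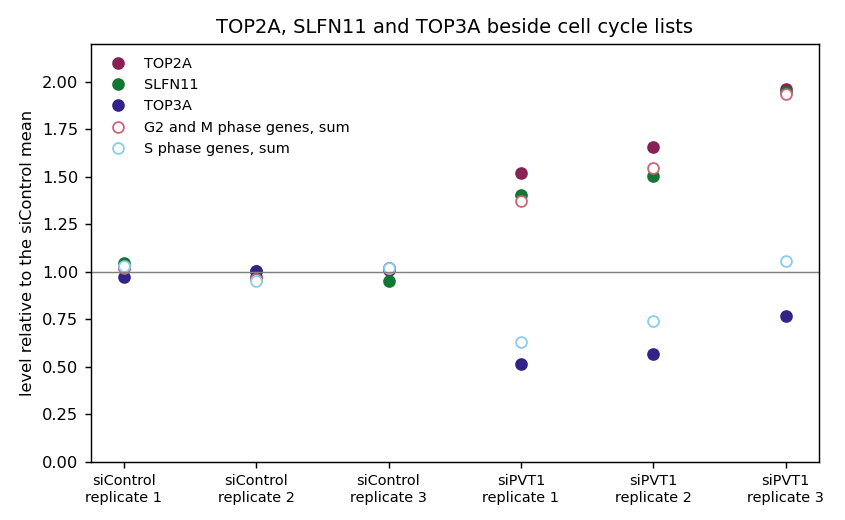
Levels in each library relative to the siControl mean, for TOP2A, SLFN11 and TOP3A (filled points) and for the summed CPM of 20 G2 and M phase genes and 18 S phase genes (open points). TOP2A, SLFN11 and the G2 and M phase sum are above 1 in all siPVT1 libraries and highest in replicate 3, while the S phase sum is well below the siControl libraries in siPVT1 replicates 1 and 2 and above them in replicate 3.

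Of 18 genes that control TOP2A and other cell cycle genes (E2F factors, NF-Y, Sp factors and the DREAM and MuvB proteins), 3 rose, 4 fell and 11 did not pass the test, so that 7 of 18 were called where 57.9% of all genes were. MYBL2, which activates G2 and M genes with MuvB, fell by 1.33 on the log2 scale (edgeR quasi-likelihood adjusted p = 0.00139), and the NF-Y subunit NFYC had −0.52 and the MuvB subunit LIN52 −0.48. Without siPVT1 replicate 3, 11 of these 18 genes fell and 3 rose, and scaled by the total count 9 fell and 1 rose. By the root mean square difference of centred log2 CPM over the 6 libraries, the genes with the profile most like TOP2A were CKS1B, ESPL1 and KIF2C, at 0.022, 0.032 and 0.034. For TOP1 they were CLTC, SHC1 and WIPI2, at 0.017, 0.017 and 0.020, and for SLFN11 they were WEE1, PRUNE2 and NCAPG2, at 0.045, 0.048 and 0.048. The 6 libraries form 2 groups, and genes with a group difference of like size are close by this measure. Among the members themselves, SLFN11 and TOP2A were the most alike pair, at 0.072.

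SLFN11 is known as an interferon-stimulated gene, and its level was set beside that response and its own family. Of 23 interferon response genes, 22 rose in siPVT1 and 1 fell, with a median log2 fold change of 2.51. Over all genes tested, 29.5% were higher and 28.4% lower. Without siPVT1 replicate 3, 20 of the 23 rose and 1 fell. IFI27, IFITM1 and MX2 had the largest, at 5.19, 4.78 and 4.40, from low siControl means of 16.0, 4.57 and 7.42 normalized counts. The summed level of the list was 197, 189 and 191 CPM in siControl and 628, 720 and 946 CPM in siPVT1. Among the siPVT1 libraries it was highest in replicate 3, as was every member but TOP2B, so that this order is not particular to SLFN11. The part of that response in the SLFN11 result was not tested. Of the 5 other Schlafen genes tested, 1 rose, 1 fell and 3 did not pass, against 57.9% of all genes called, and 2 fell without siPVT1 replicate 3. SLFN5, the most counted of them, was lower in siPVT1, at 8448 ± 382 against 11080 ± 255 normalized counts (SD, n = 3 each; log2 fold change −0.39, edgeR quasi-likelihood adjusted p = 0.000584). SLFN13 rose from 96.9 ± 5.17 to 143 ± 16.2 normalized counts (log2 fold change 0.57, edgeR quasi-likelihood adjusted p = 0.00632). SLFN12, SLFN12L and SLFNL1 did not pass, at 0.07, −0.76 and 0.87, and SLFN14 had at most 1 count in a library and was not tested. Among 6 genes known to control SLFN11, 4 rose, beside 29.5% of all genes tested. These were ETS1 (log2 fold change 1.03) and FLI1 (0.66), ETS factors that bind its promoter, and IRF1 (0.71) and IRF9 (1.30) of the interferon pathway, while EZH2 (−0.43), which silences SLFN11, did not pass the test. With DESeq2, with scaling by the total count or without siPVT1 replicate 3, 1 gene of this list was called lower. EZH2 was the only gene of the list with a negative log2 fold change in the main fit, so that its lack of a call depends on the processing.

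The partners of TOP3A moved in different directions. RMI1, the subunit that joins TOP3A to BLM, fell with it, from 890 ± 11.4 to 575 ± 148 normalized counts (SD, n = 3 each; log2 fold change −0.63, edgeR quasi-likelihood adjusted p = 0.00975). RMI2, a further subunit of that complex, rose from 383 ± 26.4 to 772 ± 62.5 normalized counts (log2 fold change 1.01, edgeR quasi-likelihood adjusted p = 4.64e-05) and is the only partner listed that passed both thresholds. The helicase BLM, at −0.04, and TDRD3, the partner of TOP3B, at −0.16, did not pass. TOP1MT, the mitochondrial form of TOP1, rose with a log2 fold change of 0.48, TOPORS, a ubiquitin and SUMO ligase that binds TOP1, with 0.27, and TOP6BL, a partner of the meiotic protein SPO11, with 0.54. SPO11 itself had 0 counts in every library. Of the 8 partners listed, 7 were tested, of which 4 rose and 1 fell, beside the 57.9% of all genes called in either direction. The number that fell was 2 with scaling by the total count, where 3 rose, and 2 without siPVT1 replicate 3.

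Other genes listed for the repair of TOP1 and TOP2 adducts and for end joining moved in both directions. Of 11 genes for TOP1 adducts, 3 rose and 4 fell. XRCC1, the scaffold of single-strand break repair, rose from 590 ± 40.2 to 1406 ± 219 normalized counts (SD, n = 3 each; log2 fold change 1.25, edgeR quasi-likelihood adjusted p = 5.74e-05). APTX, which removes AMP from stalled ligation ends, had a log2 fold change of −0.65, and the nuclease subunit MUS81 had −0.49. Of 15 genes for TOP2 adducts and end joining, 3 rose, 6 fell and 6 did not pass the test. The largest falls were in H2AX, the histone marked at breaks (−1.36, from 1569 ± 26.8 to 610 ± 136 normalized counts, SD, n = 3 each), RBBP8, which starts end resection (−1.06), and NBN of the MRE11 complex (−0.81). The share of genes that passed was 7 of 11 and 9 of 15, beside the 57.9% of all genes tested. ZNF451, a SUMO ligase that assists TDP2, had a log2 fold change of 0.07 and did not pass. With scaling by the total count, 10 of the 15 genes for TOP2 adducts fell and 1 rose, and without siPVT1 replicate 3 9 fell and 2 rose.

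Of 12 tested genes that reduce, activate or export doxorubicin, 1 rose and 5 fell, so that 6 of 12 were called where 57.9% of all genes were. The list leaves out some enzymes that act on doxorubicin, among them further carbonyl-reducing enzymes of the AKR family. The share called is thus that of the listed genes only. NQO1, a quinone reductase, was at 23650 ± 1107 normalized counts in siControl and 7906 ± 1250 in siPVT1 (SD, n = 3 each; log2 fold change −1.58, edgeR quasi-likelihood adjusted p = 1.12e-05). The efflux pump ABCG2 had a log2 fold change of −1.08 and the carbonyl-reducing enzyme AKR1C3 one of −0.79. The pumps ABCB1 and ABCC1, which export doxorubicin, had values of −0.32 and −0.12 and did not pass the test. Without siPVT1 replicate 3, 9 of the 12 fell and 1 rose, and scaled by the total count 9 fell and none rose. SLC22A16, a carrier that takes doxorubicin up, was not tested.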

How the data were processed

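RNA was measured in 6 libraries of SK-OV3 cells, grouped as siControl (3) and siPVT1 (3) by the sample titles. The authors sequenced mRNA libraries with single-end reads, aligned them with STAR 2.7.3a to GENCODE transcripts of GRCh38.p13 and quantified them with Salmon 0.14.1 (versions per the submitters' processing notes). The authors deposited estimated counts, summed over the transcripts of each symbol, not normalized and written as whole numbers. The strand setting is not given in the sources used here, so that overlapping antisense genes cannot be told apart from a member.

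Differential expression was computed with edgeR 4.0.16 in R 4.3.3, using TMM normalization and the quasi-likelihood test with the siRNA as the only term. A gene was tested if 3 or more libraries had 5 or more normalized counts. The p-values were adjusted by Benjamini-Hochberg over all 19008 genes, and standard errors were derived from the fold change and the F statistic. Coordinates and transcript lengths came from GENCODE v44 (GRCh38), and promoters from RefSeq, in which all 8 symbols matched. The test was first run on simulated counts, with planted changes larger than those of any of the 8 genes. That run does not bear on calls of changes as small as theirs.

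The members and gene lists were chosen with earlier results of these data known. Genes named are the members, PVT1, up to 3 called genes of each list with the largest change, any member of a list of 8 or fewer, and the 3 genes most like TOP1, TOP2A and SLFN11; the doxorubicin pumps, ZNF451 and SLC22A16 were named after their values were seen. Alternatives were DESeq2 1.42.0, other scalings and filters, a block for the replicate number, fits leaving out 1 library and a test against a 2-fold change; the ratio of TOP2A to G2 and M phase genes and the list counts without siPVT1 replicate 3 were chosen after seeing the data. Ratios were tested by exact permutation over libraries. Protein sequences were not used here, and 1 listed gene is not reported here.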

Additional observations from a re-analysis of the deposited data

How the results depend on the processing

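The direction of all 8 members was the same under every alternative run (total count scaling, no filter, filterByExpr, DESeq2 and its size factors, the replicate block, a test against a 2-fold change and each library left out). All 8 had an adjusted p under 0.05 under the alternatives that keep all libraries and test against no change, and the number was between 7 and 8 with 1 library left out, the gene lost being TOP3B. No member passed both thresholds under any of them, and the test against a 2-fold change called no member and 1976 genes in all, against 4081; with 1 library left out that number was between 3507 and 4239. With the replicate block, 3924 genes passed both thresholds, all 8 members kept their call, and the log2 fold change of TOP2A was 0.77 (adjusted p = 0.000419). Same-numbered libraries of the groups did not deviate together (correlations of −0.041, 0.038 and 0.004), and not every library correlated best with its own number. No pairing by number was thus seen, but the labels do not say whether same-numbered libraries were made together. The blocked ratios had the same means, with a paired exact permutation p of 0.25, the smallest possible, for TDP1 to TDP2 and TOP3A to TOP3B. Leaving out 1 library gave a log2 difference from 1.19 to 1.25 for the TDP1 to TDP2 ratio, from −0.41 to −0.31 for TOP3A to TOP3B, from −0.092 to 0.110 for TOP2A to TOP2B (reversed without siPVT1 replicate 3, at −0.092) and from 0.062 to 0.123 for TOP2A to the G2 and M phase genes. Scaling by the total count moved the share of higher genes among those past both thresholds from 55.1% to 43.8%, and, of the genes controlling TOP2A, 9 fell and 1 rose. With DESeq2, 7 of those genes fell. With 3 libraries a group, the unpaired exact permutation tests cannot go below p = 0.1.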

Other observations

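Condensin and cohesin genes were measured here as RNA only, beside a background of 57.9% of all genes called. Of 8 condensin subunits, which fold mitotic chromosomes together with TOP2A, 5 rose, 1 fell and 2 did not pass the test. NCAPD2 of condensin I rose from 5758 ± 117 to 12560 ± 1248 normalized counts (SD, n = 3 each; log2 fold change 1.12, edgeR quasi-likelihood adjusted p = 1.12e-05) and NCAPG2 of condensin II from 534 ± 13.2 to 884 ± 174 (log2 fold change 0.73, adjusted p = 0.00184). NCAPH2, a further condensin II subunit, fell (−0.58, adjusted p = 0.0271), and SMC4 and NCAPG, at 0.05 and 0.08, did not pass. Without siPVT1 replicate 3, 5 rose and 2 fell, and scaled by the total count 3 rose and 1 fell.

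Among cohesin subunits and CTCF, which mark the loop anchors where TOP2B acts, RAD21 rose from 11900 ± 325 to 21760 ± 578 normalized counts (SD, n = 3 each; log2 fold change 0.87, edgeR quasi-likelihood adjusted p = 7.38e-06). The alternative subunits STAG2 and STAG1 changed in opposite directions, at 0.69 (adjusted p = 2.62e-05) and −0.55 (adjusted p = 0.00377). SMC3 rose (0.32), CTCF fell (−0.35) and SMC1A did not pass the test (−0.11), so that 5 of 6 were called. Leaving out siPVT1 replicate 3, 3 fell and 3 rose, and scaled by the total count 2 rose and 2 fell. The difference between STAG2 and STAG1 itself was not tested.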
